A study of Mus musculus with 15 samples.

Results

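The S100 genes encode small calcium-binding proteins that work inside cells, where they bind cytoskeletal, annexin and enzyme partners, and in some cases outside them. Calcium binding opens a surface on most family members through which they hold a partner protein, and the proteins usually act as dimers. Released S100a8, S100a9 and S100b act on receptors such as the receptor for advanced glycation end products, and S100a8 with S100a9 on toll-like receptor signalling as well. In brain, S100b is best known from astrocytes, and S100a8 and S100a9 from neutrophils and other myeloid cells. All probe sets annotated to S100a1, S100a4, S100a6, S100a8, S100a9, S100a10, S100a11, S100a13, S100a16 or S100b were taken, which gave 10 genes of 19324 named on the array and 15 probe sets of 45037. S100a11 had no probe set of its own. Its 1 probe set is also annotated to S100a11-ps and Gm12854, so its values are given apart and it is not counted among the 9 genes with an own probe set.

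Total RNA of mouse forebrain was measured on 15 Affymetrix arrays, 5 in each of 3 groups. EPO-HI mice received erythropoietin at 5 U/g into the peritoneum 1 h ahead of hypoxic ischemia, in which oxygen and blood supply are both cut back (EPO-HI 11 to 15). VEH-HI mice had vehicle 1 h ahead of the same injury (VEH-HI 6 to 10), and VEH-Sham mice had vehicle 1 h ahead of sham surgery (VEH-Sham 1 to 5). No group combined erythropoietin with sham surgery, so the hormone was compared only among injured brains. The sources used here state no strain, age, sex or interval between injury and sampling. Nor do they state that each array is a separate animal, so p-values reflect how far these samples scatter, and part of that scatter may be technical. Values are log2(intensity + 16), differences are on this scale, and a probe set's level cannot be set against another's. Of the neuronal markers fixed as a list, 10 of 11 were on the array and all 10 were bright enough to test, with mean levels of 10.75 to 11.37 per array.

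The median intensity was 39.2 to 44.4 in the 10 injured arrays and VEH-Sham 5, and 55.3 to 57.9 in VEH-Sham 1 to 4. The labels record no reason for this division. VEH-Sham 5 is therefore the single sham array of the set that holds the injured brains, and most differences from VEH-Sham are followed by the difference from VEH-Sham 5 alone, which has no replicate. Within the injured groups, EPO-HI 13 held the lowest EPO-HI value of 9 of 10 S100 genes and VEH-HI 10 the lowest VEH-HI value of 10 of 10, S100a11 by its shared probe set. This holds for the probe sets that represent the genes. Another S100a10 probe set was highest in VEH-HI 10, and the second probe sets of S100a1 and S100b were lowest in VEH-HI 8. EPO-HI 13 and VEH-HI 10 also had the lowest mean level of microglia and macrophage markers in their groups (7.81 in EPO-HI 13 and 8.08 in VEH-HI 10) and the highest mean level of neuronal markers (11.27 in EPO-HI 13 and 11.26 in VEH-HI 10). The part of these in the S100 values was not tested.

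Of the S100 genes, 9 lie on chromosome 3 and S100b lies on chromosome 10. In the gene order of assembly GRCm38.p6, S100a1, S100a13, S100a16, S100a4, S100a6, S100a8 and S100a9 follow each other with 0 to 2 other protein-coding genes between neighbours. A stretch of 56 protein-coding genes then precedes S100a11, which stands next to S100a10. RefSeq promoter windows of GRCm38.p6 were at hand for 9 of the 10 genes, as 10 windows. The 250 bases ahead of the annotated start are printed 5′ to 3′ on the strand of the gene for those chromosome 3 genes whose values are described most closely, and capitals mark TGANTCA, the sequence bound by AP-1, and TATAAA, the TATA box.
S100a4, chr3:90603520-90603769, plus strand: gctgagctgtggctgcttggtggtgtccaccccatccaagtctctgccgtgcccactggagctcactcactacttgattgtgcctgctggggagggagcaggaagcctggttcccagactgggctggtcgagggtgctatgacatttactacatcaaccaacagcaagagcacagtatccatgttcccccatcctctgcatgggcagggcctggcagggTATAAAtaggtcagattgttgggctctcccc
S100a6, chr3:90612644-90612893, plus strand: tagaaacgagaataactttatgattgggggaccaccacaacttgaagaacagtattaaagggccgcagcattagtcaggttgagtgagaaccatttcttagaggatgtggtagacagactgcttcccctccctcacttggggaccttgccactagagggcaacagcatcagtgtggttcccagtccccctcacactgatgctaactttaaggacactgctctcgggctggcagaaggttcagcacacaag
S100a8, chr3:90668821-90669070, plus strand: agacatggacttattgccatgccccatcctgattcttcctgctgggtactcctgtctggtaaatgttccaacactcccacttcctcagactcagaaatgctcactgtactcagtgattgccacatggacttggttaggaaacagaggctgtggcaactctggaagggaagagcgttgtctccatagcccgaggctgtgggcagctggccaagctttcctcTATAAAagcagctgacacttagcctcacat
S100a9, chr3:90695722-90695971, minus strand: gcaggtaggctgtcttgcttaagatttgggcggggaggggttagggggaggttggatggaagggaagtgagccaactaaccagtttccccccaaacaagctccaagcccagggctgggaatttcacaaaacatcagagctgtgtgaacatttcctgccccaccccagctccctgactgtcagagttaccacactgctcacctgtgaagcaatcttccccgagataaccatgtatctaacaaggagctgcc
S100a11, chr3:93520246-93520495, plus strand: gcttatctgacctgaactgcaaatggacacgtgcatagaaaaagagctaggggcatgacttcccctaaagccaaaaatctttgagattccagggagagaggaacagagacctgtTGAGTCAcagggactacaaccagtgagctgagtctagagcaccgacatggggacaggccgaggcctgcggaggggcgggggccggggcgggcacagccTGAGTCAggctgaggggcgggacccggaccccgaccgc
Both strands were searched. Within 250 bases before to 50 bases after the start, TATAAA was found in 13.6% of 32851 promoter windows and in 3 of the 10 S100 windows. It began 31 bases ahead of the start in S100a4, 30 bases ahead of it in S100a8, and at the start itself in S100a9, in the stretch not printed. TGANTCA was found in 7.81% of all windows and in 2 of 10 S100 windows, those of S100a11, at 136 and 38 bases ahead of the start, and of S100a16, at 192 bases ahead of it. The C/EBP sequence TTGCNNAA stood in 10.8% of windows and in that of S100a9, 236 bases ahead of the start. ACGTG, the core of the hypoxia response element, stood in 19.6% of windows and in those of S100a6 and S100a11, in each case within a palindrome that matches on both strands. TTCNNNGAA, bound by STAT factors, was in 8.30% of windows and in 0 of the 10 S100 windows. No pair of these different motifs overlapped in the 10 windows, and a match describes letters only.

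VEH-HI against VEH-Sham asks which S100 transcripts differ in the injured forebrain without the hormone. S100a4, S100a6, S100a9, S100a10 and S100a16 were higher after hypoxic ischemia, by 0.54 to 2.45 on the log2 scale, and S100a1, S100a8, S100a13 and S100b did not pass the test. That is 5 of 9 genes higher and 0 lower (limma, Benjamini-Hochberg adjusted p under 0.05), against 11.9% of 13168 tested genes higher and 11.5% lower. Of the 5, S100a9 was bright enough to test only through the injured groups, and 4 others passed without it. The median difference was 0.74 over the 9 genes and -0.02 over all tested genes. The VEH-HI and VEH-Sham arrays did not overlap for 4 of the 9 (S100a4, S100a6, S100a10 and S100a16), against 4.59% of tested genes. The count of 5 stayed at 5 without EPO-HI 13 and was 7 without VEH-HI 10. In bulk tissue, more cells of a type and more RNA per cell cannot be told apart.

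S100a4 encodes a protein that binds non-muscle myosin and is known from migrating cells, fibroblasts and macrophages. Its level was 8.03, 7.78, 6.95, 7.44 and 7.92 in EPO-HI 11 to 15, 8.33, 8.05, 7.87, 8.16 and 7.48 in VEH-HI 6 to 10, and 5.78, 5.35, 6.66, 6.44 and 6.34 in VEH-Sham 1 to 5. Every injured array lay above every sham array. S100a4 was 3.65-fold higher in VEH-HI than in VEH-Sham (difference 1.87, 95% interval 1.39 to 2.34, limma adjusted p = 7.98e-05), and 1.64 above VEH-Sham 5 alone.

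S100a6, or calcyclin, is a small dimer of fibroblasts, astrocytes and epithelia that binds the calcyclin-binding protein. It measured 9.41, 9.13, 8.68, 9.08 and 9.49 in EPO-HI 11 to 15, 9.62, 9.62, 9.29, 9.01 and 8.73 in VEH-HI 6 to 10, and 7.66, 8.03, 8.33, 7.35 and 8.02 in VEH-Sham 1 to 5. Here too the injured and sham arrays did not overlap, and the lowest injured arrays were EPO-HI 13 and VEH-HI 10. The VEH-HI level was 2.59-fold that of VEH-Sham (difference 1.38, SE 0.19, limma adjusted p = 0.000231), and 1.23 above VEH-Sham 5.

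S100a16, a family member expressed in many tissues, measured 10.16, 9.92, 9.43, 9.86 and 9.91 in EPO-HI 11 to 15, 10.32, 10.25, 9.91, 9.95 and 9.89 in VEH-HI 6 to 10, and 9.44, 9.09, 9.52, 9.09 and 9.51 in VEH-Sham 1 to 5. All VEH-HI arrays were above all VEH-Sham arrays, while EPO-HI 13 fell inside the sham range. The difference of VEH-HI from VEH-Sham was 0.74 (SE 0.13, limma adjusted p = 0.00127), and 0.55 from VEH-Sham 5. A second S100a16 probe set gave 0.53 (SE 0.10, limma adjusted p = 0.00238, 0.53 from VEH-Sham 5), also without overlap.

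S100a10 and S100a11 are the annexin partners of the family: S100a10 joins annexin A2 at membranes, where it binds plasminogen and its activator, and S100a11 joins annexin A1. The 3 probe sets of S100a10 went different ways. The brightest one measured 9.60, 9.54, 9.16, 9.48 and 9.55 in EPO-HI 11 to 15, 9.75, 9.50, 9.55, 9.84 and 9.43 in VEH-HI 6 to 10, and 9.22, 8.98, 9.09, 9.23 and 8.85 in VEH-Sham 1 to 5. On it VEH-HI and VEH-Sham did not overlap and differed by 0.54 (SE 0.11, limma adjusted p = 0.00229, 0.77 from VEH-Sham 5).

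The second S100a10 probe set was 0.52 higher in VEH-HI (SE 0.12, limma adjusted p = 0.0058), with VEH-Sham 5 inside the injured range and only 0.13 below its mean. The third, the dimmest, had a difference of -0.39 (95% interval -0.86 to 0.09, limma adjusted p = 0.222) and of 0.41 from VEH-Sham 5. With the 3 probe sets averaged, S100a10 no longer passed (difference 0.23, limma adjusted p = 0.124), so its call depends on how its probe sets are combined.

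The shared S100a11 probe set measured 9.42, 9.20, 9.11, 9.40 and 9.56 in EPO-HI 11 to 15, 9.75, 9.62, 9.46, 9.46 and 9.11 in VEH-HI 6 to 10, and 8.42, 8.40, 8.34, 8.44 and 8.61 in VEH-Sham 1 to 5. Injured and sham arrays were far apart, with the highest sham value in VEH-Sham 5. The VEH-HI level was 2.05-fold that of VEH-Sham (difference 1.04, SE 0.11, limma adjusted p = 2.75e-05), and 0.87 above VEH-Sham 5. The shares of S100a11, its pseudogene and Gm12854 in this signal cannot be told apart.

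S100a8 and S100a9 form calprotectin, a heterodimer that neutrophils carry in large amounts and that binds calcium, zinc and manganese. Their spread among injured arrays was the widest of the 10 genes. S100a9 measured 6.24, 6.36, 5.05, 5.96 and 8.47 in EPO-HI 11 to 15, 8.17, 6.92, 10.13, 6.42 and 4.83 in VEH-HI 6 to 10, and 4.61, 5.34, 4.40, 4.31 and 5.55 in VEH-Sham 1 to 5. VEH-HI 8 stood highest and VEH-HI 10 lay inside the sham range, so that the groups overlapped. S100a9 averaged 4.84 in VEH-Sham, below the lowest mean level that was tested (5.46 over all arrays), so it entered the test only through the injured groups, at 6.42 in EPO-HI and 7.29 in VEH-HI. With no filter on dim probe sets its adjusted p was 0.0259, and among the brightest 40% it was not tested. S100a9 rose by 2.45 in VEH-HI (SE 0.68, 95% interval 1.04 to 3.86, limma adjusted p = 0.0152), with 1.74 against VEH-Sham 5. Its SD was 1.99 in VEH-HI and 0.57 in VEH-Sham. The model used 1 spread shared by the 3 groups, so the SE and interval of S100a9 do not reflect the wider scatter of VEH-HI alone. Without VEH-HI 8 the difference was 1.74 (adjusted p = 0.0354) and without VEH-HI 10 it was 3.07 (adjusted p = 0.00354).

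S100a8 measured 6.81, 7.24, 5.80, 5.37 and 8.97 in EPO-HI 11 to 15, 8.07, 7.00, 10.21, 6.70 and 5.38 in VEH-HI 6 to 10, and 5.89, 5.83, 6.07, 5.75 and 5.51 in VEH-Sham 1 to 5. The sham arrays kept within a narrow band (SD 0.20), whereas the VEH-HI arrays ran from below that band to far above it (SD 1.80). The difference of 1.66 did not pass (SE 0.64, 95% interval 0.32 to 3.00, limma adjusted p = 0.0657), and VEH-Sham 5 lay inside the VEH-HI range, 1.96 below its mean. It passed without VEH-HI 10 (2.18, adjusted p = 0.0187) or without EPO-HI 15, which enters through the shared spread (adjusted p = 0.0418), and it was 0.98 without VEH-HI 8. In the deposited intensities, S100a8 spanned 25.7 in VEH-HI 10 to 1167 in VEH-HI 8, 2 samples given the same treatment. S100a9 was at 3.8 to 30.8 in the sham arrays, near the 16 added before the logarithm, so the size of its difference from VEH-Sham depends on this constant. With 1 added in its place, S100a9 differed by 3.41 and S100a8 by 1.88.

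The remaining S100 genes did not pass. S100b, the astrocyte protein that also circulates as a marker of brain injury, measured 8.36, 8.26, 8.14, 8.17 and 8.16 in EPO-HI 11 to 15, 8.13, 8.08, 8.07, 8.25 and 7.77 in VEH-HI 6 to 10, and 8.05, 8.19, 8.23, 7.94 and 8.19 in VEH-Sham 1 to 5. Its 3 groups overlapped throughout. The difference of VEH-HI from VEH-Sham was -0.06 (95% interval -0.27 to 0.15, limma adjusted p = 0.690, -0.13 from VEH-Sham 5), and a second probe set gave -0.15 (95% interval -0.43 to 0.14, -0.34 from VEH-Sham 5). With 5 arrays a group, any difference inside these intervals remains possible. When all arrays were set to equal medians, the S100b difference turned to 0.18, and that scaling moved the median of all tested probe sets from -0.06 to 0.18 as well.

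S100a1, which in heart tunes the calcium pump and release channel of the sarcoplasmic reticulum, had 8.32 to 9.04 in EPO-HI, 8.62 to 8.95 in VEH-HI and 8.43 to 9.00 in VEH-Sham. It differed by 0.15 (95% interval -0.13 to 0.42, limma adjusted p = 0.448, 0.27 from VEH-Sham 5) and on a second probe set by 0.23 (95% interval -0.10 to 0.57, 0.33 from VEH-Sham 5). S100a13, which takes part in the export of fibroblast growth factor and interleukin precursors lacking a signal sequence, had 8.01 to 8.96 in EPO-HI, 7.96 to 8.74 in VEH-HI and 7.58 to 8.25 in VEH-Sham. Its difference of 0.43 missed the threshold (95% interval 0.07 to 0.78, limma adjusted p = 0.0735, 0.33 from VEH-Sham 5) and passed when VEH-HI 10 was left out (0.53, adjusted p = 0.0374). The plot of the values in each array shows the 10 genes side by side.

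**Figure D1:**
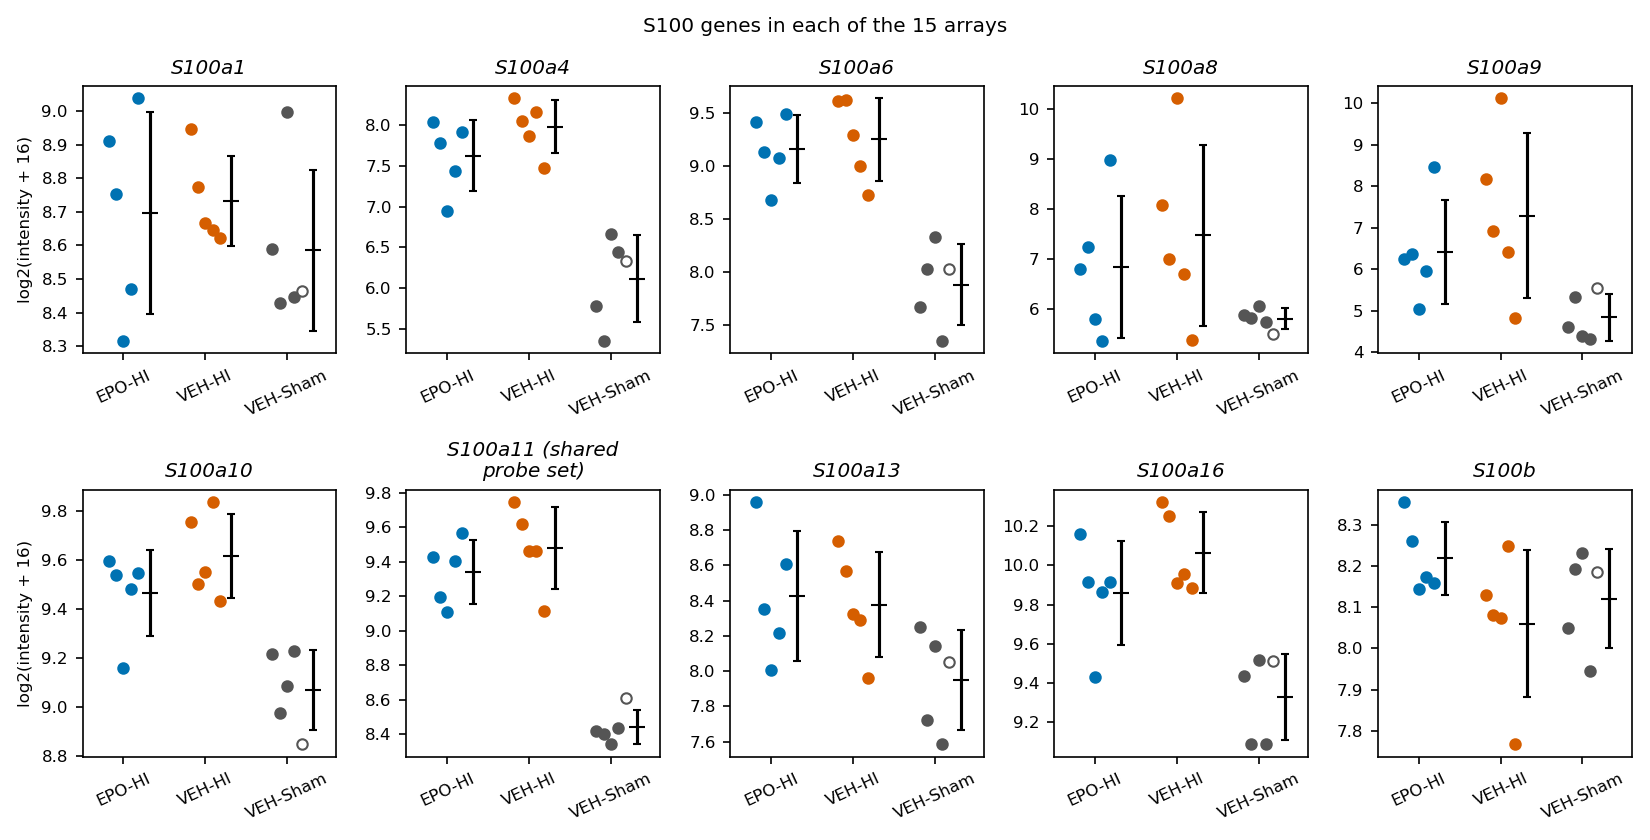
Log2(intensity + 16) of each S100 gene (1 point per array, brightest own probe set, S100a11 by its shared probe set) in EPO-HI, VEH-HI and VEH-Sham, with a horizontal tick and bar for the mean and SD of 5 arrays, VEH-Sham 5 as an open circle and a separate vertical scale per gene. S100a4, S100a6 and the shared S100a11 probe set show no overlap between injured and sham arrays, S100a8 and S100a9 spread widely in both injured groups, and S100b overlaps in all 3.

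The division of the arrays limits all comparisons with VEH-Sham. With the array set as a block, or with the 11 arrays of the lower set alone, 0 of 9 S100 genes passed in limma, and 3 and 7 probe sets did over the whole table. In the blocked fit the S100a4 difference was 1.64 (adjusted p = 0.207), that of S100a6 1.23 (adjusted p = 0.297), that of the shared S100a11 probe set 0.87 (adjusted p = 0.116), that of S100a10 0.77 (adjusted p = 0.148), that of S100a16 0.55 (adjusted p = 0.621) and that of S100a9 1.74 (adjusted p = 0.842). These fits compare VEH-HI with VEH-Sham 5 only, which is assumed to vary like the other arrays. The direction of all 6 was unchanged.

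EPO-HI against VEH-HI asks whether erythropoietin ahead of the injury alters the S100 transcripts, and it shares the VEH-HI arrays used in VEH-HI against VEH-Sham. No S100 gene passed in limma: the count was 0 of 9 after Benjamini-Hochberg adjustment and also 0 of 9 at an unadjusted p under 0.05. Of the 13168 tested genes, 0% passed in each direction. Over the 27022 probe sets, 1066 had an unadjusted p under 0.05 and the smallest adjusted p was 0.138. By the brightest probe sets the difference was below 0 for 7 of the 9 genes, with a median of -0.15 against -0.01 over all tested genes. The EPO-HI and VEH-HI arrays overlapped for all 9 genes, where 0.357% of tested genes were separate and higher and 0.372% separate and lower.

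The largest difference in size was that of S100a9, -0.88 (95% interval -2.29 to 0.53), and that of S100a8 was -0.63 (95% interval -1.97 to 0.70). Without VEH-HI 8, S100a9 was at -0.17 and S100a8 at 0.05. S100a4 differed by -0.35 (95% interval -0.83 to 0.12), S100a16 by -0.21 (95% interval -0.48 to 0.06) and S100a10 by -0.15 (95% interval -0.37 to 0.07). The second S100a10 probe set went the other way on average, at 8.84 to 9.25 in EPO-HI and 8.71 to 9.16 in VEH-HI. The dimmest S100a10 probe set was lower on average in EPO-HI. With the probe sets of each gene averaged, S100a10 and S100a16 both stayed below 0. For S100a6 the value was -0.09 (95% interval -0.49 to 0.30) and for the shared S100a11 probe set -0.14 (95% interval -0.37 to 0.09). S100a1 was at -0.03 (95% interval -0.31 to 0.24). S100a13 and S100b were above 0, at 0.05 (95% interval -0.30 to 0.40) and 0.16 (95% interval -0.05 to 0.37). The intervals of S100a8 and S100a9 are so wide that neither a large difference nor none can be told from these arrays.

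**Figure D2:**
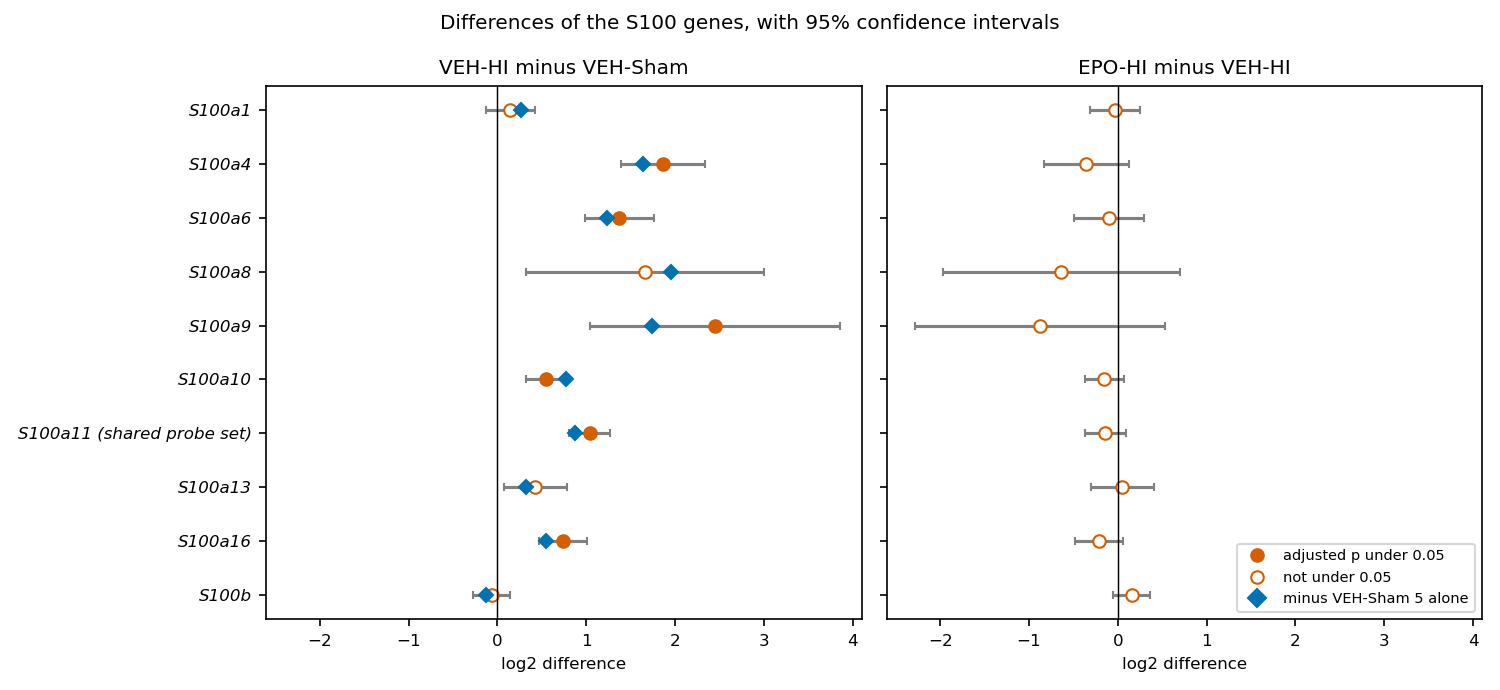
Log2 difference of each S100 gene for VEH-HI minus VEH-Sham (left) and EPO-HI minus VEH-HI (right), as circles with 95% confidence intervals from limma, filled where the adjusted p is under 0.05, with diamonds for the difference from VEH-Sham 5 alone. On the right all intervals include 0, and those of S100a8 and S100a9 are the widest on both sides.

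EPO-HI against VEH-Sham shares its sham arrays with the first comparison and its EPO-HI arrays with the second, so its values are set beside theirs and carry no separate weight. S100a4, S100a6, S100a10 and S100a16 were higher in EPO-HI, which is 4 of 9 genes against 8.86% of tested genes higher, with 0 lower against 9.46%. The median was 0.53 over the 9 genes and -0.01 over all tested genes. For S100a4 and S100a6, 2 of the 9, the groups did not overlap, against 3.79% of tested genes. The count of 4 was 5 without EPO-HI 13 and 5 without VEH-HI 10. S100a4 was 2.85-fold higher (1.51, SE 0.23, limma adjusted p = 0.0011, 1.29 above VEH-Sham 5) and S100a6 2.43-fold (1.28, SE 0.19, limma adjusted p = 0.000903, 1.14 above VEH-Sham 5). S100a16 differed by 0.53 (SE 0.13, limma adjusted p = 0.0107, 0.34 above VEH-Sham 5) and S100a10 by 0.39 (SE 0.11, limma adjusted p = 0.0166, 0.62 above VEH-Sham 5).

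The other S100a10 probe sets again parted, at 0.63 (SE 0.12, limma adjusted p = 0.00349, 0.24 above VEH-Sham 5) and at -0.69 (SE 0.23, limma adjusted p = 0.0399, but 0.10 above VEH-Sham 5), and the mean of all 3 did not pass (0.11, adjusted p = 0.482). S100a9 was at 1.57 (95% interval 0.16 to 2.98, limma adjusted p = 0.105, 0.87 from VEH-Sham 5) and S100a8 at 1.03 (95% interval -0.31 to 2.36, limma adjusted p = 0.265, 1.32 from VEH-Sham 5). S100a13 was at 0.48 (95% interval 0.12 to 0.83, limma adjusted p = 0.0546, 0.38 from VEH-Sham 5) and passed without EPO-HI 13 (0.58, adjusted p = 0.028). The shared S100a11 probe set was 1.86-fold higher (0.90, SE 0.11, limma adjusted p = 0.00018, 0.73 above VEH-Sham 5). With the array set as a block, 0 of 9 S100 genes and 4 probe sets passed.

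How the S100 genes varied from one injured array to the next was followed over the 10 hypoxic ischemia arrays, EPO-HI and VEH-HI together, because 5 arrays a group are too few for a correlation within one. In all 85 relations were computed, with 100000 permutations each and Benjamini-Hochberg adjustment over the 85. S100a8 and S100a9 varied together across these arrays, with Pearson's r of 0.96 (adjusted permutation p = 0.00255) and Spearman's rho of 0.90 (adjusted permutation p = 0.0133). Without VEH-HI 8 and EPO-HI 15, the arrays farthest from the median of S100a8, r was 0.88, and with the group means removed it was 0.96.

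Among the 7 genes other than S100a8, S100a9 and S100b, S100a11 by its shared probe set, 14 of 21 pairs had an adjusted permutation p of r under 0.05, and 10 of them also by rho. Over the 21 pairs r was 0.51 to 0.90. The highest was that of S100a4 with S100a10, at r 0.90 (adjusted permutation p = 0.00765) and rho 0.84 (adjusted permutation p = 0.0186). S100a6 and the shared S100a11 probe set reached r 0.89 (adjusted permutation p = 0.0115) and rho 0.84 (adjusted permutation p = 0.0186). With the 2 farthest arrays left out, r over the 21 pairs was -0.13 to 0.86, lowest for S100a6 with S100a10 and next for S100a1 with S100a10 (0.37), and over the 14 that passed it was 0.68 to 0.86. With the group means removed it was 0.51 to 0.91 over the 21. EPO-HI 13 was 1 of the 2 arrays left out for 13 of the 14.

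S100a8 and S100a9 had r of 0.28 to 0.67 with these 7 genes, and 0 of 14 pairs passed by r. For S100a9 with the shared S100a11 probe set rho was 0.79 (adjusted permutation p = 0.036), and r changed from 0.67 to 0.91 when VEH-HI 8 and EPO-HI 15 were left out. S100b had r of 0.12 to 0.57 with the other 9 genes, and 0 of 9 pairs passed. With the group means removed its r was 0.31 to 0.72. Whether S100b differs from the others in these correlations was not tested.

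**Figure D3:**
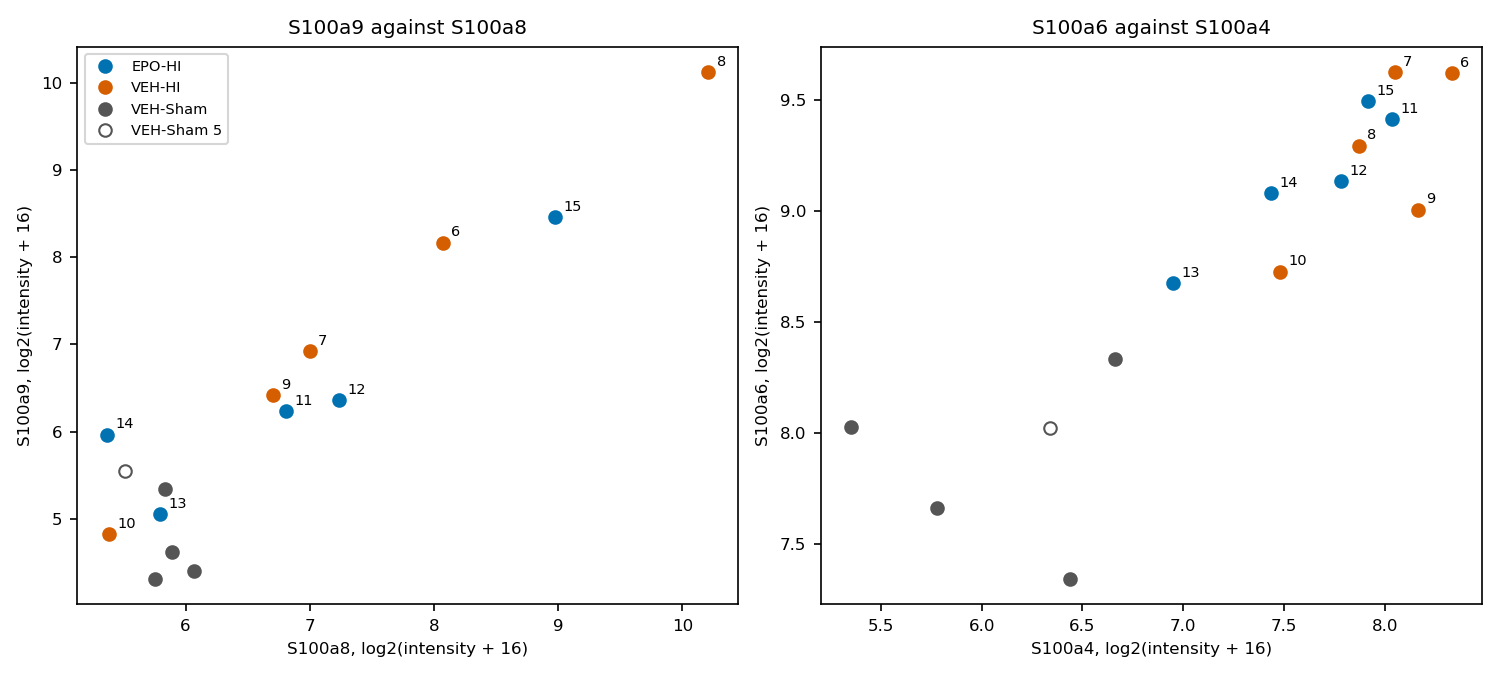
S100a9 against S100a8 (left) and S100a6 against S100a4 (right) in each of the 15 arrays, all axes log2(intensity + 16), with the injured arrays numbered and VEH-Sham 5 as an open circle. EPO-HI 15, VEH-HI 6 and VEH-HI 8 lead S100a8 and S100a9, and EPO-HI 13, EPO-HI 14 and VEH-HI 10 lie near the sham arrays, whereas all injured arrays lie above the sham arrays for S100a4 and S100a6.

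Markers of other cell types moved with some S100 genes. Of 14 tested markers of microglia and macrophages, a list that holds no S100 gene, 11 were higher in VEH-HI than in VEH-Sham and 1 lower, with a median of 0.91 (0.95 from VEH-Sham 5), and their summed intensity was 3717 to 5467 in EPO-HI, 4580 to 6952 in VEH-HI and 2911 to 3591 in VEH-Sham. Across the 10 injured arrays the mean level of these markers had an adjusted permutation p of r under 0.05 with 7 of 10 S100 genes, the exceptions being S100a8, S100a9 and S100b. It was closest for S100a4, at r 0.94 (adjusted permutation p = 0.0034), rho 0.89 (adjusted permutation p = 0.0159) and r 0.88 without EPO-HI 13 and EPO-HI 14. For S100a8 it was r 0.60 and for S100a9 also 0.60, and without VEH-HI 8 and EPO-HI 15 these were 0.88 and 0.87. Their part in the S100 differences was not tested.

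Neutrophil markers other than S100 genes were dim, with 12 of 15 listed on the array and 6 bright enough to test. Of the 6 tested, 1 was higher in VEH-HI than in VEH-Sham, Csf3r, the receptor of granulocyte colony-stimulating factor (1.11, limma adjusted p = 0.000979, 1.09 from VEH-Sham 5). Csf3r was at 4.88 to 5.03 in the sham arrays, below the lowest mean that was tested (5.46), so it was tested only through its injured arrays. The median of the 6 was -0.21, but 0.20 from VEH-Sham 5. The summed intensity of the 6 tested markers was 188 to 253 in EPO-HI, 227 to 266 in VEH-HI and 177 to 351 in VEH-Sham, and none of the 12 was listed at 0. Across the injured arrays the mean level of the 6 tested markers had r of -0.09 with S100a8 and -0.16 with S100a9, and 0 of 10 S100 genes passed. Markers too dim to test do not enter this mean, and whether it follows the number of neutrophils was not tested. In VEH-HI 8, where S100a8 and S100a9 peaked, Elane and Mpo, enzymes of neutrophil granules, were at 5.00 and 5.30, against 5.27 to 6.41 and 5.43 to 6.40 in VEH-Sham. In the same array Csf3r was at 6.39 and Ngp, another granule protein, at 6.37, the highest of VEH-HI for Ngp, against 4.88 to 5.03 and 5.71 to 6.89 in VEH-Sham. Mmp9, a gelatinase, was at 4.48 there, against 5.34 to 6.25 in VEH-Sham, and Ltf, or lactoferrin, at 6.08, against 5.35 to 6.74 in VEH-Sham. In EPO-HI 15, where S100a8 and S100a9 were highest of EPO-HI, Csf3r was at 5.34, the lowest of EPO-HI. Mpo was at 5.59 and Ltf at 6.20 in EPO-HI 15, each the highest of EPO-HI. Elane was at 5.78, Mmp9 at 6.06 and Ngp at 6.03 in that array, each between the lowest and highest of EPO-HI. Of the 12, 4 were highest of their groups in both EPO-HI 15 and VEH-HI 8, namely Cd177, Hp, Il1r2 and Mmp8, and 0 of these 4 were bright enough to test. Il1r2, a decoy receptor for interleukin 1, had 6.49 in EPO-HI 15 and 6.76 in VEH-HI 8, against 4.36 to 5.48 in VEH-Sham. Mmp8, a collagenase, had 5.21 and 5.45 in these arrays, against 4.33 to 5.05 in VEH-Sham. Cd177 had 5.40 and 5.13, inside its VEH-Sham range of 5.00 to 6.01, and Hp had 5.39 in EPO-HI 15 and 4.30 in VEH-HI 8, the second of these inside its VEH-Sham range of 4.13 to 4.72.

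The astrocyte list rose for 6 of 11 markers in VEH-HI (0 lower, median 0.40) and the list for meninges and fibroblasts for 4 of 10 (0 lower, median 0.31). Against VEH-Sham 5 alone their medians were 0.16 and 0.15. Over the injured arrays the astrocyte list passed by r with 2 of 10 S100 genes, the shared S100a11 probe set (r 0.88, rho 0.85) and S100a6 (r 0.77, rho 0.75), and the meningeal list with 1, the shared S100a11 probe set (r 0.82, rho 0.88). By rho S100a6 did not pass with the astrocyte list (adjusted permutation p = 0.0599), while S100a4 (0.0186), S100a16 (0.034) and the shared S100a11 probe set (0.0186) did. With the meningeal list S100a4 passed by rho as well (adjusted permutation p = 0.036). S100b, itself an astrocyte gene, had r of 0.34 with the astrocyte list, which was -0.47 without EPO-HI 11 and VEH-HI 10 and 0.65 with the group means removed. Of the other lists, choroid plexus had 2 of 5 markers higher (median 0.26, 0.091 from VEH-Sham 5), endothelium 2 of 7 higher and 1 lower (0.23, 0.033 from VEH-Sham 5), and oligodendrocytes and myelin 1 of 8 lower (-0.08, -0.12 from VEH-Sham 5). For neurons it was 0 of 10 in either direction (-0.14, -0.24 from VEH-Sham 5) and for blood 0 of 2 (0.23, 0.61 from VEH-Sham 5). In EPO-HI against VEH-HI 0 markers of any of the 9 lists passed in limma.

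**Figure D4:**
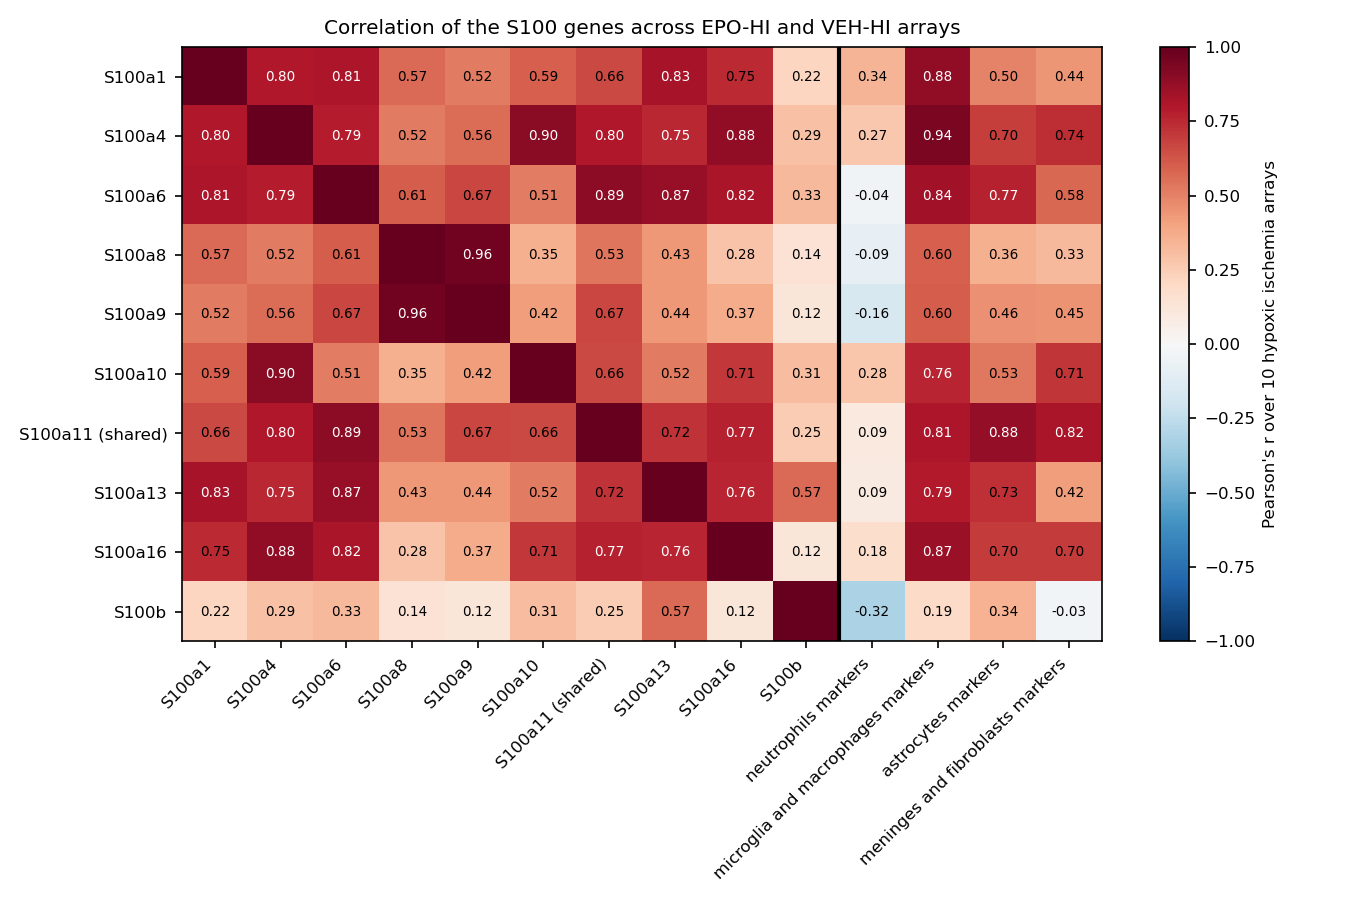
Pearson's r between S100 genes, and between each S100 gene and the mean log2 level of the tested markers of 4 lists (right of the black line), over the 10 hypoxic ischemia arrays, coloured from blue (negative) to red (positive) with r written in each cell. S100a8 and S100a9 form a pair at 0.96, and S100b has r of 0.57 or less with every other S100 gene. The neutrophil column, a mean of dim markers, stays between -0.32 and 0.34.

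Genes whose values ran most closely with a given S100 gene over the 10 injured arrays were sought among 12514 genes, and r is given as a description with no test. For S100a4 these were Vamp3 (r 0.97), a vesicle fusion protein, Tyrobp (r 0.94), the signalling adaptor of microglial receptors, and Mrps34 (r 0.94), a mitochondrial ribosome protein. For S100a6 they were Cd52 (r 0.97), a leukocyte surface glycoprotein, the transcription factor gene Tcf7l1 (r 0.97) and the tumour necrosis factor receptor gene Tnfrsf1a (r 0.96).

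S100a8 was followed, after S100a9, by Stfa2l1 (r 0.94), a stefin A family cysteine protease inhibitor, and Lcn2 (r 0.93), the iron-siderophore binding protein lipocalin. Stfa2l1 had 4.59 to 8.22 in EPO-HI, 5.17 to 9.75 in VEH-HI and 4.57 to 5.26 in VEH-Sham, and Lcn2 had 5.48 to 7.68 in EPO-HI, 4.85 to 9.21 in VEH-HI and 4.45 to 5.94 in VEH-Sham. Both had a wide range among injured arrays, but they were picked by their r with S100a8 over these same arrays. Stfa2l1 lay below the lowest mean that was tested (5.46) in every sham array, so it entered the search only through its injured arrays. S100a9 was followed, after S100a8, by Srgn (r 0.96), the proteoglycan serglycin of blood cell granules, and Lcn2 (r 0.95).

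For the shared S100a11 probe set the closest, among 12515 genes, were Odc1 (r 0.96), the first enzyme of polyamine synthesis, Nhsl2 (r 0.95) and Emp1 (r 0.94), an epithelial membrane protein. S100b ran with Zfp759 (r 0.93), the dynein chain gene Dync2li1 (r 0.92) and Ankrd2 (r 0.91). With 10 arrays and this many genes, high values of r arise in any search of this kind.

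The receptors, partners and targets of S100 proteins were read from a list of 34 genes, of which 31 were on the array and 28 were bright enough to test. In VEH-HI against VEH-Sham 8 of the 28 were higher, 1 was lower and 19 did not pass, where 11.9% of tested genes were higher and 11.5% lower, and the median was 0.16 (0.12 from VEH-Sham 5). Of the annexin genes on the list, Anxa1, Anxa2 and Anxa5 were among the 8, and Anxa6 was at 0.15 (limma adjusted p = 0.326, 0.22 from VEH-Sham 5). Anxa11, also on the list, was not among the genes that passed. Anxa1, the partner of S100a11, had a level of 8.06 ± 0.57 in VEH-HI and 7.01 ± 0.32 in VEH-Sham (SD, n = 5 each), a difference of 1.05 (limma adjusted p = 0.00274, 0.78 from VEH-Sham 5). Anxa2, the partner of S100a10, had 9.11 ± 0.49 in VEH-HI and 8.05 ± 0.32 in VEH-Sham (SD, n = 5 each), a difference of 1.06 (limma adjusted p = 0.00277, 0.67 from VEH-Sham 5). Anxa5 was higher by 0.80 (limma adjusted p = 0.0067, 0.32 from VEH-Sham 5) and Ahnak, a large scaffold that binds the S100a10 and annexin A2 complex, by 0.54 (limma adjusted p = 0.0192, 0.32 from VEH-Sham 5).

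Myh9, the heavy chain of the non-muscle myosin that S100a4 binds, was higher by 0.57 (limma adjusted p = 0.0111, 0.63 from VEH-Sham 5). Plat, the tissue plasminogen activator that S100a10 binds, was higher by 0.53 (limma adjusted p = 0.00228, 0.31 from VEH-Sham 5). Gfap, the astrocyte filament protein that S100b binds and that also stands in the astrocyte list, was higher by 1.32 (limma adjusted p = 0.00285, 1.17 from VEH-Sham 5). Capzb, which encodes a subunit of the actin capping protein that S100b binds, passed at 0.41 but was at -0.14 from VEH-Sham 5. Htr4, a serotonin receptor that S100a10 binds, was the 1 lower gene, at -0.78 (limma adjusted p = 0.0459, -0.74 from VEH-Sham 5).

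The receptors of released S100 proteins did not pass. Tlr4 differed by 0.45 (limma adjusted p = 0.156, 0.67 from VEH-Sham 5) and Cd36 by -0.05 (limma adjusted p = 0.904, but 0.40 from VEH-Sham 5), while Ager, the receptor for advanced glycation end products, was too dim to be tested. Cacybp, the binding protein of S100a6, was at -0.08 (limma adjusted p = 0.477, but 0.12 from VEH-Sham 5), and Fgf1, whose export involves S100a13, at -0.11 (limma adjusted p = 0.674, -0.00083 from VEH-Sham 5). In EPO-HI against VEH-HI 0 of the 28 passed (median -0.04), and in EPO-HI against VEH-Sham 8 were higher and 1 lower (median 0.17). Of 7 further S100 genes listed, 4 were on the array and 1, S100a5, was bright enough to test, at 0.016 in VEH-HI against VEH-Sham and 0.14 from VEH-Sham 5.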

How the data were processed

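The deposited values are intensities on a linear scale, 1 per probe set and array, summarised by the authors. The sources used here do not name the software. Judged by the values, the authors' scaling set each array's mean, with 2% trimmed at each end, to 150. All 15 columns were matched to samples by name. After removal of 64 control probe sets, 45037 remained, of which 34945 had 1 gene symbol in the platform annotation. Of these symbols, 34741 were checked by gene number against GRCm38.p6 and 0 changed. Precision is limited by 5 arrays a group.

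Values were converted to log2(intensity + 16). The brightest 60% of probe sets (27022, mean of at least 5.46) entered 1 limma 3.58.1 model with 3 group means (eBayes with trend, R 4.3.3), with two-sided tests and Benjamini-Hochberg adjustment over all of them. A gene is its brightest probe set with that symbol alone. The model was tested on simulated data. Correlations and figures were made in Python 3.11.15 with scipy 1.17.1 and matplotlib 3.10.9.

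All 10 S100 genes are named, with the 3 genes of highest r for S100a4, S100a6, S100a8, S100a9, S100a11 and S100b, and up to 8 passing partner genes with the smallest p. The members, the list of partners, the list of further S100 genes and 9 marker lists were chosen with earlier results of these data known. Htr4, receptors and partners that did not pass, and single neutrophil markers, were named after their values were seen. Alternatives covered the added constant, the filter, the scaling, the array set, the probe sets of a gene and each left-out array.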

Additional observations from a re-analysis of the deposited data

Results flagged for a closer look

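In 4 of 45 groups of 5 arrays, 1 array stood far from the nearest of the others for the range of its group, which chance gives in about 1 of 20 groups. For S100a1 VEH-Sham 3 was highest, at 9.00 against 8.59 for the next array. For the dimmest S100a10 probe set VEH-Sham 5 was lowest, at 5.20 against 6.06. EPO-HI 13 was lowest in its group for the brightest S100a10 probe set, at 9.16 against 9.48, and for the second S100a16 probe set, at 9.14 against 9.48. The 10 hypoxic ischemia arrays hold 2 of these values, both in EPO-HI 13, and VEH-HI 8, in which S100a8 and S100a9 were highest, was not among them.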

How the results depend on the processing

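The 11 S100 results that passed were each tried under 20 to 22 settings that ignore the array set, most of them leaving out 1 array. Of the 234 combinations of result and setting, 231 kept their call and direction. The exceptions were those of S100a10 (mean of its probe sets in both comparisons with VEH-Sham, and quantile normalization in EPO-HI against VEH-Sham, 0.30 with adjusted p = 0.071). No paired analysis was possible because the replicate numbers run from 1 to 15 and none is shared between groups.

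In VEH-HI against VEH-Sham 5 S100 genes passed, 8 with equal array medians (when 7727 of 27022 probe sets passed, 6614 of them higher), 0 with the array set as a block, 0 in the 11 arrays with VEH-Sham 5, and 5 to 7 with 1 array left out. In EPO-HI against VEH-Sham 4 passed, then 8, 0 and 0, and 4 to 5 with 1 array left out. In EPO-HI against VEH-HI it was 0 to 0. Probe sets numbered 6174 in the first (2661 higher), 3 with the block, 7 in the 11 arrays and 3824 to 9609 with 1 array left out. They numbered 4939 in EPO-HI against VEH-Sham (2005 higher), 3008 among the brightest 40%, 8603 with equal medians (7627 higher), 4 with the block, 5 in the 11 arrays and 2509 to 9047 with 1 array left out. In EPO-HI against VEH-HI they were 0 to 4. The extremes came without VEH-Sham 4 and without VEH-Sham 5, and the causes were not tested.

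In VEH-HI against VEH-Sham S100b turned to 0.18 with equal medians and was -0.11 to 0.012 with 1 array left out. In EPO-HI against VEH-HI the sign depended on single arrays for S100a1 (-0.12 to 0.062), S100a6 (-0.23 to 0.026), S100a8 (-1.17 to 0.049) and S100a13 (-0.082 to 0.16), and none of these passed. S100a8 in VEH-HI against VEH-Sham also passed with quantile normalization (adjusted p = 0.0416) and equal medians (0.0262).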
